A study of Mus musculus with 18 samples.

Results

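The regions described here were stretches of the mouse genome that carried H3K79me2 in every library of the study, chosen by the percentage of each region covered by peaks. The deposited peaks of 9 H3K79me2 libraries on chromosomes 1 to 19 and X were merged into 60558 union regions, and a list was counted as present in a region where its merged peaks covered at least 50% of it. Regions present in all 9 lists and shorter than 100 kb were kept, which gave 5826 regions, 9.62% of the union regions and 44.5% of their bases (162.9 Mb). Because coverage in all 9 lists chose them, coverage itself is given below as a description.

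H3K79me2 is dimethylation of lysine 79 of histone H3, set by the methyltransferase DOT1L. DOT1L travels with complexes that help RNA polymerase II through the early gene body, so the mark typically begins near the transcription start site of active genes, runs through their first introns and fades downstream. In T cells it therefore lies on genes that every cell uses and on genes of the T cell receptor machinery.

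The study asked what DOT1L does in T helper cells, and had 3 cell types with 3 libraries each, beside 9 input libraries that entered no comparison. For the Th2 libraries, CD4+ T cells of reporter mice (IL-4 AmCyan, IL-13 dsRed and IFNg-YFP) were enriched and grown on plate-bound anti-CD3 and anti-CD28 for 4 days, with IL-4, IL-2 and anti-IFNg added, and cells with AmCyan or dsRed were then sorted. For the Th1 libraries the cells were grown likewise with IL-12, IL-2 and anti-IL-4, and YFP+ cells were sorted. For the naive libraries, cells of a naive surface phenotype, CD44- among its markers, were sorted straight from spleens of WT mice, without culture. All 18 libraries carry the genotype label WT. Culture, reporter alleles and sort thus differed together between polarised and naive cells, and their effects cannot be told apart. The labels do not say whether libraries came from different animals, and the p-values below therefore reflect library-to-library spread that may be technical.

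The lists held 45894 to 51854 peaks in Th2, 41504 to 46085 in Th1 and 38026 to 40455 in naive libraries, and covered 232 to 249.9 Mb, 217 to 240.1 Mb and 276 to 285 Mb. Read depth is unknown, so whether the longer coverage of the naive lists came with more reads was not tested. The 10 T lineage markers (Cd3e, Cd3d, Cd3g, Cd247, Cd4, Lck, Lat, Thy1, Cd2 and Cd5) were on average covered over 94.3 to 95.2% of the gene in Th2, 95.8 to 96.8% in Th1 and 96.2 to 98.1% in naive libraries. Of 24 genes of B, myeloid, NK and erythroid cells 16 were at 0 in all 9 libraries, and of 24 genes of non-haematopoietic tissues 19 were. Among the others, Cd79a was covered over 100% of the gene in all 9 libraries and Pecam1 over 83.84 to 100%. Tyrobp had 78.95 to 100% in Th2, 37.38 to 55.41% in Th1 and 100% in naive libraries. Cd79b had 35.97 to 83.99% in naive libraries and 0 elsewhere. Itgam had 7.215 to 10.49% in naive libraries, 1.348 to 1.508% in Th1 and 0 in Th2. Klf1 had 20.45 to 45.62% in polarised and 0 in naive libraries. Whether other cells were present was not tested. The naive libraries, like all others, carry the source label CD4+ T cell. The CD8 genes Cd8a and Cd8b1 were covered over 0 to 27.8% in Th2, 0 to 11.9% in Th1 and 100% in all 3 naive libraries, and the values of the naive libraries go against that label. The part of this difference in the comparisons with naive cells below was not tested.

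The promoters of the most strongly marked regions are printed to show how far their CG content varied. Strength was the rank of a region's strongest peak within each list by the authors' fold enrichment, a ratio to the peak caller's background, and the median rank over the 9 lists chose 6 regions, of Pgam1, Cd247, Msl2, Csnk1g3, Ankrd44 and D16Ertd472e. Their promoters are given from RefSeq (GRCm38.p6), 250 bases before to 50 bases after the start, 5′ to 3′ on the gene's strand, with each CG in capitals; that of Csnk1g3 is named only. Cd3d, which encodes a chain of the T cell receptor complex, was added after its value was seen as the T lineage marker with the fewest CG.
Pgam1, chr19:41911621-41911920 (+): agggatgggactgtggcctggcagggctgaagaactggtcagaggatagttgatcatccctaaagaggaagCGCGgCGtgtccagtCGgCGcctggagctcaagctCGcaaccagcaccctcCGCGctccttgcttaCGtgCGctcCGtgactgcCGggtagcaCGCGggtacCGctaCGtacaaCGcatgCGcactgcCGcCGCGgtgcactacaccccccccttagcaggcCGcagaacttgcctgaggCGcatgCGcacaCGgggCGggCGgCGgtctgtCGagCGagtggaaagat
Cd247, chr1:165788431-165788730 (+): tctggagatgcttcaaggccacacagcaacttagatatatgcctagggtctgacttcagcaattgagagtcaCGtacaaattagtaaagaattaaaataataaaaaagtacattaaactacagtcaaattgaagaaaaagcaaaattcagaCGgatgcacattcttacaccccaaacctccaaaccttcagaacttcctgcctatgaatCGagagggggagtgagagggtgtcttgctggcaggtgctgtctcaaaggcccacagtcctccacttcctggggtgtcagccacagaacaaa
Msl2, chr9:101073804-101074103 (+): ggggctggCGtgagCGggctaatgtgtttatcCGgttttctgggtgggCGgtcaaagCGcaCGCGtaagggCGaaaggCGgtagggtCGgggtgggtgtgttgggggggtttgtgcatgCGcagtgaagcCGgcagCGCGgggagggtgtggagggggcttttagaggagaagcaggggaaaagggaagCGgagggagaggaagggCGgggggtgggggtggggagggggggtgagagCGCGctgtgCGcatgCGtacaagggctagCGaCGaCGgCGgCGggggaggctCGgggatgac
Ankrd44, chr1:54926338-54926637 (-): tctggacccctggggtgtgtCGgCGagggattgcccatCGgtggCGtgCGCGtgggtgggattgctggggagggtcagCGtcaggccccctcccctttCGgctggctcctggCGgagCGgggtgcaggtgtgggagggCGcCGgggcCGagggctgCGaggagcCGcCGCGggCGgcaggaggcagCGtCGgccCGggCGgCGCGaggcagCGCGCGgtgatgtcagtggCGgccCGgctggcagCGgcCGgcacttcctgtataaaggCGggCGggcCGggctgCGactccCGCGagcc
D16Ertd472e, chr16:78576639-78576938 (-): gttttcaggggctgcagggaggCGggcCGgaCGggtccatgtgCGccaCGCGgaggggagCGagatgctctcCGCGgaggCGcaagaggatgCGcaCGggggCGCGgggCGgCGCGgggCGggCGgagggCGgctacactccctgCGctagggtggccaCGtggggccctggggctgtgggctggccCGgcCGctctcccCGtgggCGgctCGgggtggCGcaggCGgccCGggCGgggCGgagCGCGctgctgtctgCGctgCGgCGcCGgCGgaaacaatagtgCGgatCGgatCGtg
Cd3d, chr9:44981536-44981835 (+): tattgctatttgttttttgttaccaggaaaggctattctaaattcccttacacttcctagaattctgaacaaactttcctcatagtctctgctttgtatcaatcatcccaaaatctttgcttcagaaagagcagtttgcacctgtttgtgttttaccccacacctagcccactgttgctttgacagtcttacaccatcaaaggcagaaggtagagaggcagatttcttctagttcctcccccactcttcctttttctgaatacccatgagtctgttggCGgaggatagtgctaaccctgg

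These windows held 30 CG in Pgam1, 26 in Msl2, 37 in Ankrd44 and 42 in D16Ertd472e, but 3 in Cd247 and 1 in Cd3d. The median was 23 over the 4710 protein-coding start sites that lay in the regions and 14 over all 17274 start sites with a promoter sequence. Both kinds of promoter, rich and poor in CG, therefore sat at regions marked in every library. A GC box, GGGCGG on either strand, was present in the windows of Pgam1, Msl2, Ankrd44 and D16Ertd472e.

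The region of Pgam1 (chr19:41911849-41946161, 34.3 kb) also held Exosc1, for an exosome subunit, and Zdhhc16. Pgam1 encodes a phosphoglycerate mutase of glycolysis. Its strongest peak had a fold enrichment of 15.4, 15.4 and 17.3 in Th2, 17.4, 15.9 and 12.6 in Th1 and 8.45, 9.78 and 7.86 in naive libraries. Each ratio belongs to its own list, and no difference between cell types is read from them. The region was covered over 57.2, 68.8 and 64.4% in Th2, 72.7, 64.2 and 80.8% in Th1 and 82.9, 78.1 and 87.4% in naive libraries. The Th2 libraries thus lay below all naive libraries in coverage, and the Th1 libraries overlapped both.

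Cd247 encodes the zeta chain of the T cell receptor complex, which carries its signalling motifs. Its region (chr1:165777039-165862647, 85.6 kb) was covered over 92.7, 96.3 and 94.5% in Th2, 92.4, 91.95 and 93.7% in Th1 and 99.02, 98.3 and 98.9% in naive libraries, so that every library held nearly the whole of it. Ankrd44, for an ankyrin repeat subunit of a protein phosphatase complex, had a 39.8-kb region covered over 83.8, 83.2 and 84.7% in Th2, 81.6, 83.2 and 82.2% in Th1 and 96.8, 99.96 and 98.8% in naive libraries. In D16Ertd472e the order was the other way round, with 88.5, 81.1 and 85.5% in Th2, 81.2, 73.99 and 72.7% in Th1 and 59.05, 57.6 and 56.5% in naive libraries. Msl2, a subunit of a histone acetyltransferase complex, had 73.9 to 86.02% in Th2, 67.4 to 77.04% in Th1 and 96.6 to 99.9% in naive libraries, and Csnk1g3, a casein kinase, had 76.97 to 93.4% in Th2, 62.7 to 67.1% in Th1 and 80.9 to 99.7% in naive libraries.

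The regions marked in every list were wide. Their median width was 21.8 kb (quartiles 11.7 and 38.0 kb, range 0.526 to 99.99 kb), against 0.99 kb over all union regions. Regions present in 1 list alone made up 51.1% of the union and had a median width of 387 bp. Of the other classes, 4128 regions were present in all naive lists and no Th1 or Th2 list (median 5.18 kb), and 552 were present in all Th1 and Th2 lists and no naive list (median 12.5 kb). A further 313 regions were present in all 9 lists but reached 100 kb or more. Width is bound up with the rule, since a narrow peak missed in 1 list drops out.

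The rule's thresholds cut through a continuum. The lowest coverage over the 9 lists was between 50 and 55% in 594 regions and between 45 and 50% in 570 regions outside the set. Just inside were the regions of Psmd4 and Atad3a, both with a lowest coverage of 50.02%, and just outside were those of Csrnp2 (49.99%) and Herc1 with Fbxl22 (49.97%). At the width limit, Add3 lay inside with 99.99 kb and Ago2 with Chrac1 outside with 100.005 kb.

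Within the regions, coverage was more often broken in polarised cells. The percentage of regions covered as 1 unbroken peak was 39.6, 35.0 and 42.7% in the Th2 libraries, 44.6, 35.0 and 37.2% in the Th1 libraries and 61.1, 55.3 and 59.8% in the naive libraries. The median region was covered over 81.3, 82.9 and 84.8% in Th2, 85.6, 80.3 and 79.7% in Th1 and 92.99, 92.4 and 93.6% in naive libraries. In both measures every naive library lay above every Th1 and Th2 library, while the Th2 and Th1 libraries overlapped. The regions took 57.3, 56.8 and 54.99% of all covered bases in the Th2 lists, 57.9, 59.4 and 60.4% in the Th1 lists and 53.5, 53.96 and 52.8% in the naive lists, and here the groups did not overlap. With lists cut to the same covered length, and the regions rebuilt (5046), the share was 54.9% in Th2, 55.1% in Th1 and 60.2% in naive lists, with naive lists highest, and the cause of the shift was not tested. The gap in unbroken regions nearly closed with peaks restricted to −log10 q of 5 or more. The values were then 86.3% in Th2, 84.8% in Th1 and 88.98% in naive libraries. At matched covered length they were 60.2% in Th2, 49.6% in Th1 (38.9 to 67.5%) and 89.3% in naive libraries. Matching dropped the weakest peaks of each list and left 9172 to 9846 peaks in naive, 18319 to 26459 in Th2 and 18648 to 41504 in Th1 lists. Weak peaks were thus removed unequally, so matching cannot decide whether the gap holds.

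**Figure D1:**
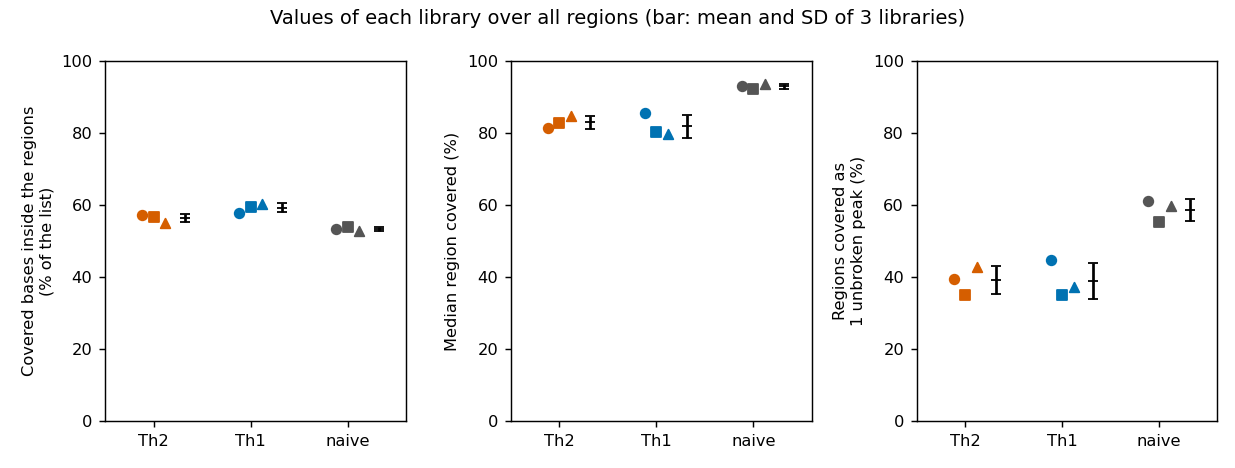
Values of each library over the 5826 regions, with Th2, Th1 and naive libraries on the x axis: the share of the list's covered bases that lay in the regions, the median percentage of a region covered, and the percentage of regions covered as 1 unbroken peak. Points are libraries and bars are the mean and SD of 3; in the middle and right panels the naive libraries (92.4 to 93.6% and 55.3 to 61.1%) lie above all Th2 and Th1 libraries.

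Full coverage in every library was rare. In 1697 regions the lowest library reached at least 80%, in 466 at least 90% and in 8 at least 99%. The lowest library was a Th2 library in 2127 regions, a Th1 library in 2776 and a naive library in 923. A total of 758 regions were unbroken in all 9 lists and 807 in none. The 4 widest regions with at least 99% in every list belonged to Nek7 (81.6 kb), a kinase needed for the NLRP3 inflammasome, Themis (57.3 kb), a thymocyte selection protein of T cell receptor signalling, Camk2d (49.1 kb), a calcium-dependent kinase, and Ppm1b (43.1 kb), a protein phosphatase. The Themis region was covered over 99.7, 99.6 and 99.8% in Th2, 99.8, 99.7 and 99.5% in Th1 and 99.99, 99.9 and 99.8% in naive libraries.

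The widest regions after Add3 were those of Stk24, a kinase of the STE20 family, Mbp, known for myelin basic protein and for other transcripts used in lymphocytes, and Rgs3, a regulator of G protein signalling. Stk24 was covered over 86.99 to 91.4% in Th2, 92.2 to 94.2% in Th1 and 99.1 to 99.9% in naive libraries, and Rgs3 over 68.9 to 72.2% in Th2, 69.4 to 71.6% in Th1 and 96.2 to 97.9% in naive libraries. The narrowest regions of at least 2 kb with a whole gene held Sdf2l1, an endoplasmic reticulum protein, Rps15, a ribosomal protein, Atp6v0b, a proton pump subunit, and Mtln, a mitochondrial micropeptide. Rps15 had a 3.30-kb region covered over 79.5, 86.6 and 98.97% in Th2, 89.4, 83.98 and 79.8% in Th1 and 69.03, 68.3 and 59.1% in naive libraries, so here the naive libraries were the lowest.

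Nearly all of the regions lay on genes. Of the 5826 regions 5667 (97.3%) overlapped a protein-coding gene, against 67.1% of all union regions, and 57 overlapped no annotated gene. The union regions were far narrower (median 0.99 kb against 21.8 kb), and a wide region meets a gene more easily. Of the 313 regions in all 9 lists of 100 kb or wider 98.7% overlapped a protein-coding gene. At least 50% of the gene lay in a region for 4934 of 21631 protein-coding genes (22.8%), and 1936 lay in one entirely. A region held 1 such gene in 3080 cases (52.9%), 2 or more in 743 (12.8%), and part of a longer gene in 1844 (31.7%). By gene length, the share inside was 6.80% for genes under 2 kb, 30.2% for genes of 10 to 20 kb and 5.03% for genes over 100 kb, which the width limit keeps out. Among other biotypes 7.33% of lncRNA genes, 20.9% of miRNA genes, 18.96% of snoRNA genes and 2.45% of tRNA genes lay inside. On chromosome 11, 29.7% of protein-coding genes lay inside, and on X 9.21%, the highest and the lowest of the 20 chromosomes. Overlapping genes (17.8% of protein-coding genes) share a region and cannot be told apart.

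Some regions were shared by neighbours. The region of Syvn1 (chr19:6040383-6097996), an E3 ubiquitin ligase of endoplasmic reticulum quality control, held 10 genes, among them Mrpl49, Fau, Vps51 and Cdca5, and was covered over 77.3 to 79.8% in Th2, 80.02 to 83.4% in Th1 and 88.6 to 92.4% in naive libraries. A region of 72.4 kb on chromosome 17 also held 10, among them Daxx, a histone chaperone, Tapbp, which loads MHC class I, and Rps18. The region of 7 genes around Kmt2b, a histone H3K4 methyltransferase, was covered over 70.7 to 77.1% in Th2, 87.7 to 93.2% in Th1 and 88.2 to 89.7% in naive libraries, so that the Th2 libraries were lowest with no overlap. Of 662 divergent pairs of start sites within 1 kb, 417 (63.0%) had both starts in 1 of the regions.

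A few of the regions held no annotated gene, and the strongest 4 of these are given here. The strongest, at chr17:52043629-52088798 and 45.2 kb wide, was 210.3 kb from Satb1, the nearest protein-coding gene and the gene of a chromatin organiser of T cells. It was covered over 95.6, 99.6 and 98.3% in Th2, 79.4, 74.9 and 77.5% in Th1 and 97.5, 96.9 and 99.7% in naive libraries, with the Th1 libraries lowest. The next, at chr2:11106545-11120873, lay 51.0 kb from Prkcq, which encodes the protein kinase C theta of T cell receptor signalling, and was covered over 70.2, 85.99 and 100% in Th2, 72.97, 69.3 and 69.97% in Th1 and 70.03, 69.7 and 70.7% in naive libraries. Those on chromosomes 7 and 12 lay 20.4 kb from Zfp788 and 24.3 kb from LOC115488002.

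Most regions contained the start of a gene. Of the 5668 regions off chromosome 18, 3602 (63.6%) held a protein-coding start site, and 27.3% of the 17274 start sites lay in them. Of all union regions, which were far narrower, 9.51% held one. Start sites in the regions were rich in CG: 77.2% had an observed to expected CG ratio of at least 0.6 and at least 50% G and C, against 46.3% of all start sites and 28.9% of those in no region of any list. The share was 55.4% for start sites in regions of the naive lists alone and 58.2% for those of the Th1 and Th2 lists alone. It was 69.8% for the 341 start sites in regions of 100 kb or wider off chromosome 18, also with a median of 23 CG, and 214 of those 307 regions (69.7%) held a start site. Promoter sequences were found for 81.9% of the 4934 genes in the regions and for 79.9% of all protein-coding genes.

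**Figure D2:**
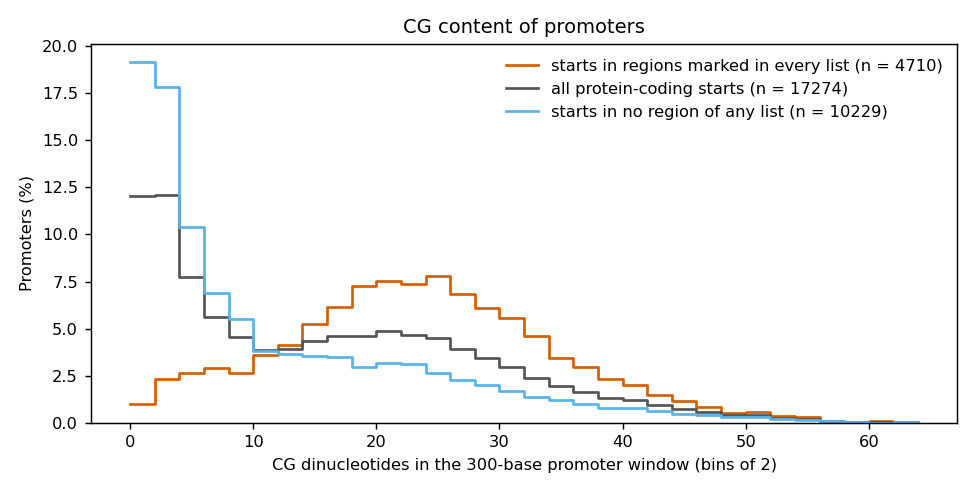
Distribution of the number of CG dinucleotides in the 300-base promoter window (x axis, bins of 2) as a percentage of promoters (y axis) for start sites in the regions, all start sites, and start sites in no region of any list. The median is 23 in the regions, 14 over all start sites and 6 in no region.

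Short motifs were searched on both strands of these windows; matches of different motifs may overlap, and a match is only a match of letters. CCGGAAG, read by ETS factors, was present in 24.6% of the promoters in the regions and 12.1% of all promoters. GGGCGG was present in 66.8% and 46.9%. CACGTG, the E box, was in 11.5% and 8.01%, and TGACGTCA, the cyclic AMP response element, in 3.76% and 2.36%. TATAAA was less frequent in the regions, with 5.90% and 13.4%, and CCAAT was in 39.0% and 39.6%. The motifs other than TATAAA and CCAAT hold CG, in which these windows were rich. In regions of all 9 lists of 100 kb or wider, GGGCGG was in 65.4% of promoters, TATAAA in 8.21% and CCGGAAG in 11.1%. For regions of the Th1 and Th2 lists alone these were 68.5, 7.88 and 11.5%, and for the naive lists alone 53.2, 9.11 and 16.8%. The share with GGGCGG was thus not particular to the regions described here.

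The shape of the mark around the start was read in 2267 regions that held 1 gene and its start site. At 1 kb downstream of the start 99.3% of them were covered in Th2, 99.1% in Th1 and 98.9% in naive libraries (means of 3). At the start itself the values were 59.5, 61.1 and 67.8% in Th2, 62.3, 57.3 and 57.6% in Th1 and 84.6, 83 and 82% in naive libraries. The naive libraries were thus highest at the start and close to the others 1 kb into the gene. Upstream, at 1 kb, the means were 51.4% in Th2, 43.5% in Th1 and 54.8% in naive libraries, so that Th2 and naive libraries were closer there than at the start.

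The start was left uncovered in 2 ways. Coverage began downstream of the start in 26.4 ± 3.55% of the regions in Th2, 31.5 ± 2.58% in Th1 and 11.7 ± 0.772% in naive libraries (SD, n = 3 each). An uncovered start with coverage upstream of it in the region was found in 10.8 ± 1.03% in Th2, 9.43 ± 1.67% in Th1 and 5.13 ± 0.526% in naive libraries. With peaks restricted to −log10 q of 5 or more, such starts fell to 1.691% in Th2, 1.97% in Th1 and 1.206% in naive libraries. Coverage then began downstream of the start in 36.66% in Th2, 40.01% in Th1 and 17.13% in naive libraries. Most uncovered starts with coverage upstream, and most of their difference between groups, thus depended on weak peaks. The start was covered in all 9 libraries in 847 regions (37.4%), in all 3 naive and no other library in 212 (9.35%), and in all 6 Th1 and Th2 and no naive library in 30 (1.32%). The 212 included Raly, an RNA-binding protein gene, Cds2, of phospholipid synthesis, and Rab11b, of recycling endosomes. These 2267 regions had to reach the start in at least 1 library. With starts up to 2 kb outside the region counted too, 2840 regions entered. Of these starts 50.4% were covered in Th2, 47.3% in Th1 and 66.7% in naive libraries. A start outside the region lies outside its peaks, so few of the added starts could be covered. Starts covered went from 1348 to 1353 in Th2 library 1 and from 1917 to 1925 in naive library 1. The order of the groups was thus carried over from the 2267 regions and says nothing on their selection.

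The difference at the start was smallest at the starts with the most CG. The Th2 minus naive difference in the mean percentage of starts covered was -23.97, -21.8, -19.9 and -15.7 points in 4 classes of rising CG content (0 to 16, 17 to 23, 24 to 31 and 32 to 65 CG). The Th1 minus naive differences were -25.97, -27.3, -24.4 and -18.6 points. No test was made of this trend. Among the 584 regions with the fewest CG (0 to 16) the start was covered in 62.3 ± 4.35% in Th2, 60.3 ± 3.13% in Th1 and 86.2 ± 0.262% in naive libraries, and among the 533 with the most (32 to 65) in 66.3 ± 3.06%, 63.4 ± 3.39% and 81.99 ± 2.89%. In both classes the naive libraries lay above the others, and the Th2 and Th1 libraries overlapped.

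**Figure D3:**
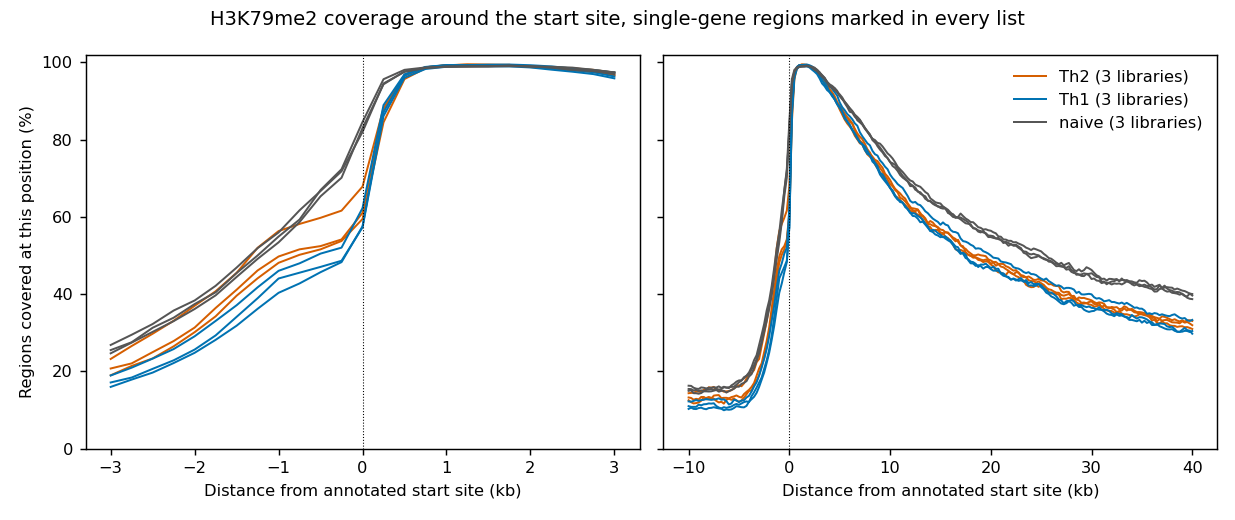
Percentage of 2267 single-gene regions covered (y axis) by distance from the annotated start site in kb (x axis), 1 line per library, within 3 kb on the left and from 10 kb upstream to 40 kb downstream on the right. All libraries are near 99% at 1 kb downstream, while at the start Th2 libraries have 59.5 to 67.8%, Th1 57.3 to 62.3% and naive 82 to 84.6%.

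Downstream, the mark ended inside the gene in most of these regions. The choice of regions favours this, since those reaching a second protein-coding gene were left out. The far edge was also read only within the region, so coverage resuming beyond it did not count. The median distance from the start to the far edge was 17.1, 17.4 and 17.2 kb in Th2, 17.6, 17.2 and 17.1 kb in Th1 and 17.8, 17.9 and 17.99 kb in naive libraries, or 63.3 to 64.3%, 63.3 to 65.4% and 67.5 to 67.9% of the gene's length. The edge passed the gene's end in 11.95 to 12.9% of regions in Th2, 12.5 to 13.5% in Th1 and 12.4 to 12.8% in naive libraries. The far edge varied more than the near one: its range over the 9 libraries had a median of 2.15 kb, against 1.32 kb upstream, and it was the larger in 66.5% of regions. The far edge lay over 2 kb nearer to the start in Th2 than in naive libraries in 18.8% of regions and over 2 kb farther in 3.49%; for Th1 against naive libraries these were 16.1% and 3.93%, and for Th2 against Th1 libraries 5.12% and 3.26%.

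Most genes of several lists of basic cellular machinery lay in the regions. The regions held 61 of 82 cytosolic ribosomal protein genes, 56 of 81 genes of oxidative phosphorylation, 40 of 54 translation initiation factors, 38 of 50 spliceosome genes, 25 of 31 ubiquitin conjugating enzymes and 26 of 39 proteasome subunits, where 22.8% of all protein-coding genes lay inside. Of the nuclear pore genes 13 of 27 lay inside, and 22 of 27 with any overlap of the gene counted, and of RNA polymerase II and Mediator 23 of 44 did. Ribosomal protein genes have near-identical pseudogene copies, so the reads behind their peaks are uncertain.

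T lineage markers and genes of T cell receptor signalling were mostly inside as well. Of the 10 T lineage markers 9 lay inside, all but Cd5. Cd5 was covered over 99.15 to 100% of the gene in every library, but its region did not meet the rule. Of 39 genes of T cell receptor signalling 25 lay inside. Among them were the kinases Lck and Zap70, the adaptors Lat, Lcp2 and Vav1, the coreceptor Cd28 and the inhibitors Csk, Cbl and Ptpn22. Grb2, an adaptor that links receptors to Ras, had a 49.9-kb region covered over 98.1 to 99.3% in Th2, 98.04 to 99.1% in Th1 and 99.3 to 99.8% in naive libraries. Of 20 T lineage identity factors 5 lay inside (25%), close to the 22.8% of all protein-coding genes. They were Zbtb7b, which directs the CD4 fate, Cbfb, the partner of RUNX factors, Gata3, Tcf3 and Myb.

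Genes of the separate T helper fates were mostly outside, but so were most protein-coding genes, of which 22.8% lay inside. Inside were 15% of the Th1 list and 5% of the Th2 list, and nothing particular to fate genes is read from these counts. Of 20 Th1 genes 3 lay inside, among them Il12rb1 and Stat4, a receptor chain and the signal transducer of IL-12, and of 20 Th2 genes 1, Stat6, the signal transducer of IL-4. The rule reads the region, so a gene outside can still be marked in every library. Il4ra, Ccr8 and Gfi1 of the Th2 list were covered over at least 95.2, 88.6 and 85.8% of the gene in all 9 libraries. The mean over the Th2 list was 29.4 to 31.6% in naive libraries, and 2 of its genes were at 0 in all 9. Of 18 naive and quiescence genes 7 lay inside, among them Il7r and Btg1, and of 18 activation genes 13, among them Myc, Irf4, Icos and Cd69. Cell cycle and replication genes (19 of 24) and glycolysis genes (13 of 20) were also inside in naive lists, as the rule requires. Of the genes of other blood cells 1 of 24 lay inside, Cd79a of the B cell receptor, in a 44.5-kb region with Rps19, and of the genes of other tissues and the CD8 genes none did.

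**Figure D4:**
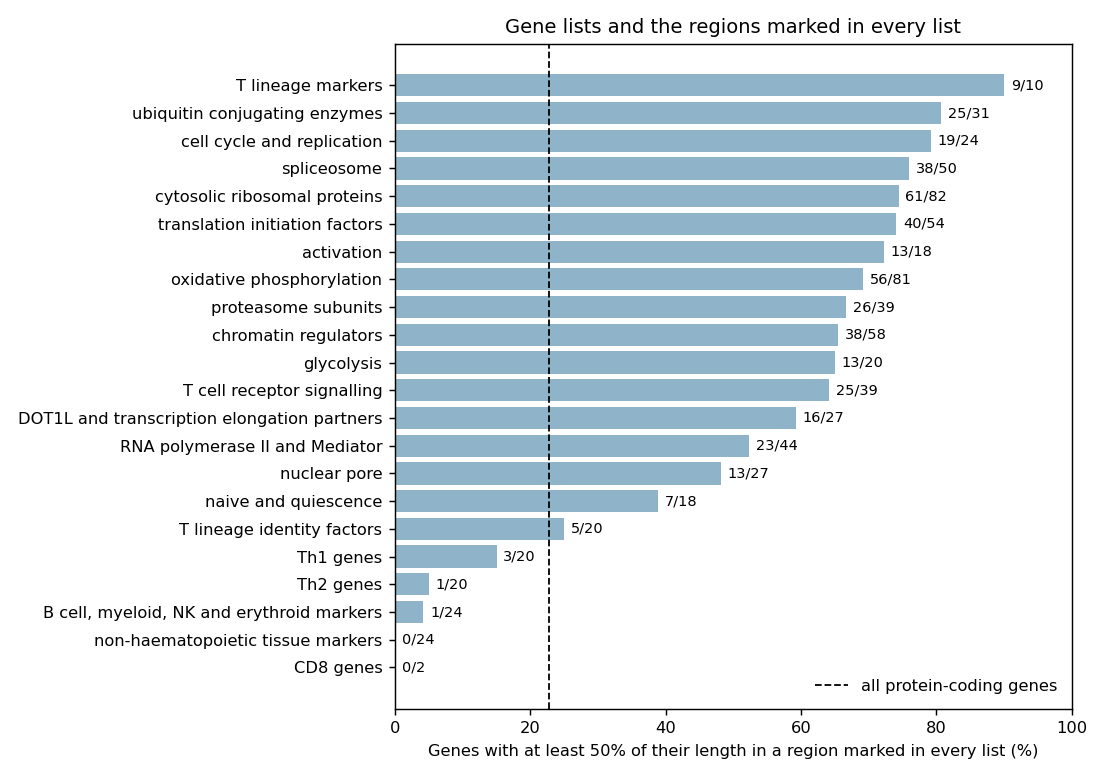
Percentage of the genes of each list (rows) with at least 50% of their length in a region marked in every list (x axis), with the number inside and the number in the list beside each bar. The dashed line is the share of all protein-coding genes, 22.8%.

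Genes of the enzyme's own pathway were among them: 16 of 27 genes of DOT1L and transcription elongation partners. Dot1l itself lay inside, with Mllt1, Mllt6 and Aff4, which bind DOT1L or the super elongation complex, Cdk9 and its cyclins Ccnt1 and Ccnt2, which release paused polymerase, Paf1, Cdc73 and Rtf1 of the PAF complex, and Rnf40, of H2B ubiquitination. Cdk9 had a 7.85-kb region covered over 95.1, 85.5 and 90.8% in Th2, 100, 95.3 and 97.4% in Th1 and 87.8, 93.99 and 84.9% in naive libraries; the Th1 libraries lay above all others, and the Th2 and naive libraries overlapped. The region of Supt5, an elongation factor, was covered over 62.8, 63.96 and 68.8% in Th2, 80.6, 60.6 and 76.7% in Th1 and 94.8, 98.3 and 92.02% in naive libraries, with the naive libraries highest.

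How far the extent of the mark differed between cell types inside these regions was read with limma, fitted over all 60558 union regions, with a call at an adjusted p under 0.05 and at least 25 percentage points. Since the rule keeps every library at 50% or more, no region here could differ by more than 50 points, and the counts are descriptive. In Th1 against naive cells 87 regions were higher and 804 lower, where 22.1% of all union regions were called (4.88% higher and 17.2% lower). In Th2 against naive cells 122 were higher and 684 lower, with 22.8% of all regions called (6.92% higher and 15.8% lower). In Th2 against Th1 cells 51 were higher and 34 lower, with 5.88% of all called (3.93% higher and 1.94% lower); without the first Th1 library these were 82 and 19, and without a variance trend 23 and 10.

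The split into higher and lower rested on the scale. Naive libraries covered more of the genome, and the median difference over the regions was -9.02 points for Th1 against naive, -8.35 for Th2 against naive and 0.60 for Th2 against Th1, beside -8.79, -4.36 and 0 over all union regions. With libraries centred to a common mean those medians over the regions were 3.83, -2.27 and -6.16, and the counts were 385 higher and 80 lower in Th1 against naive, 234 and 315 in Th2 against naive, and 14 and 105 in Th2 against Th1. Over all union regions, 20.5% were called after centring in Th1 against naive (8.1% higher and 12.4% lower), 23.3% in Th2 against naive (9.57% and 13.7%) and 6.53% in Th2 against Th1 (3.39% and 3.14%). Centring moved every difference of a comparison by the same amount, upward against naive cells and downward in Th2 against Th1 cells. Of the calls above, all 87 and 122 higher regions against naive cells were called higher after centring, which could only enlarge their differences. Of the lower regions against naive cells, 80 of the 804 and 315 of the 684 were called lower after centring. The 24 regions with the largest differences, given next, were called in the same direction on both scales. For gains against naive cells and losses in Th2 against Th1 cells the centred scale could only enlarge them and adds no support.

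The regions with the largest called gains in Th1 against naive cells included 2 genes of sterol synthesis. Hmgcs1, which makes the precursor of mevalonate, had a region (chr13:119677841-119707599) covered over 90.02, 89.1 and 94.3% in Th2, 100, 98.5 and 95.8% in Th1 and 57.9, 53.5 and 63.7% in naive libraries, a difference of 39.7 points in Th1 against naive cells (SE 3.12). Idi1, the isopentenyl diphosphate isomerase, was covered over 79.01, 82.8 and 99.02% in Th2, 99.4, 98.6 and 86.8% in Th1 and 51.2, 52.6 and 53.4% in naive libraries. Gprin3 was called higher in both polarised cell types, with 91.6 to 97.4% in Th2, 92.4 to 96.3% in Th1 and 53.7 to 54.8% in naive libraries. In Ahi1, a gene of the primary cilium, coverage was 92.6, 72.2 and 87.8% in Th2, 100, 99.02 and 87.6% in Th1 and 56.3, 51.6 and 51.6% in naive libraries. In each of these 4 regions all Th1 and Th2 libraries lay above the naive ones.

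The largest losses in Th1 against naive cells were in Rab6b, of vesicle transport, Ube2j1, a ubiquitin conjugating enzyme of the endoplasmic reticulum, Ppp6r2, a phosphatase subunit, and Tbc1d25, a Rab regulator. Rab6b was covered over 67.1, 60.6 and 59.6% in Th2, 53.5, 54.02 and 50.2% in Th1 and 99.9, 99.9 and 99.8% in naive libraries. It fell by 47.3 points in Th1 (SE 3.66), near the most that the rule allows, and by 37.4 points in Th2 against naive cells. Ube2j1 had 51.03 to 58.7% in Th2, 52.9 to 53.4% in Th1 and 97.3 to 98.7% in naive libraries. The naive libraries were above all others in each of these 4 regions.

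In Th2 against naive cells the gains were led by the regions of Hilpda, a hypoxia-inducible lipid droplet gene, and Irf4. The Hilpda region also overlapped Fam71f2. Irf4 encodes a transcription factor induced by T cell receptor signals and needed for Th2 cells. Irf4 (chr13:30736355-30766551) was covered over 92.96, 92.9 and 99.1% in Th2, 73.8, 79.6 and 73.95% in Th1 and 53.7, 52.00 and 54.2% in naive libraries, 3 levels that did not overlap, and rose by 41.7 points in Th2 against naive cells (SE 3.44). Hilpda had 99.4, 90.3 and 100% in Th2, 66.5, 57.7 and 67.6% in Th1 and 52.6, 55.7 and 52.00% in naive libraries. The region of Cd53, a tetraspanin of leukocytes, with the olfactory receptor gene Olfr266, had 93.95 to 96.7% in Th2, 84.3 to 96.05% in Th1 and 53.6 to 54.6% in naive libraries, and Myo9a had 97.3 to 99.2% in Th2, 82.1 to 86.3% in Th1 and 53.2 to 61.5% in naive libraries.

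The losses in Th2 against naive cells were led by Slc35b1, Usp28, Prpf18 and the region of Pcif1 with Zfp335. Usp28, a deubiquitinase, was covered over 52.97, 55.99 and 53.9% in Th2, 59.6, 59.1 and 53.6% in Th1 and 97.2, 98.4 and 99.99% in naive libraries and fell by 44.3 points in Th2 against naive cells (SE 3.73). Zfp335 encodes a zinc finger factor needed for thymocyte maturation and Pcif1 an mRNA cap methyltransferase; their region had 51.8, 53.2 and 53.4% in Th2, 63.7, 57.4 and 63.9% in Th1 and 97.2, 95.9 and 96.2% in naive libraries. Prpf18, a splicing factor, had 52.2 to 59.3% in Th2, 63.5 to 79.4% in Th1 and 97.96 to 99.9% in naive libraries, with the Th1 libraries between the others.

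Between the polarised cell types the largest gain in Th2 was in Gata3, the transcription factor that specifies the Th2 fate. Its region (chr2:9856580-9890224) was covered over 96.5, 94.9 and 99.8% in Th2, 56.6, 54.5 and 53.2% in Th1 and 69.8, 70.4 and 68.5% in naive libraries. It was higher in Th2 than in Th1 cells by 42.3 points (SE 3.27). Its strongest peak had a fold enrichment of 10.7 to 12.7 in Th2, 4.72 to 5.59 in Th1 and 6.91 to 7.57 in naive libraries. Each ratio belongs to its own list, and with depth unknown no difference between cell types is read from them. Sema4b, of the semaphorin family, in a region with Cib1 and Gdpgp1, Kcna2, a potassium channel gene, and Kcnip1, a potassium channel regulator, were also higher in Th2. Kcna2 had 90.7, 93.00 and 97.1% in Th2, 61.4, 54.03 and 56.9% in Th1 and 94.2, 92.9 and 93.4% in naive libraries, so that the Th1 libraries alone stood low.

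The largest losses in Th2 against Th1 cells were in Cep162, a ciliary protein gene, in the region of Mpzl3 and Jaml, a junctional adhesion molecule gene, in that of Ncf1 with Gtf2i, and in a region 8.69 kb from Tnfrsf14. Ncf1 encodes a subunit of the phagocyte NADPH oxidase. Its region had 60.9, 61.9 and 59.03% in Th2, 96.95, 93.1 and 95.7% in Th1 and 90.9, 87.00 and 88.9% in naive libraries. Cep162 had 51.8 to 62.2% in Th2, 95.2 to 98.5% in Th1 and 91.2 to 97.9% in naive libraries. The region near Tnfrsf14 differed in its pattern, with 56.1 to 66.5% in Th2, 89.5 to 98.1% in Th1 and 58.5 to 62.9% in naive libraries.

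**Figure D5:**
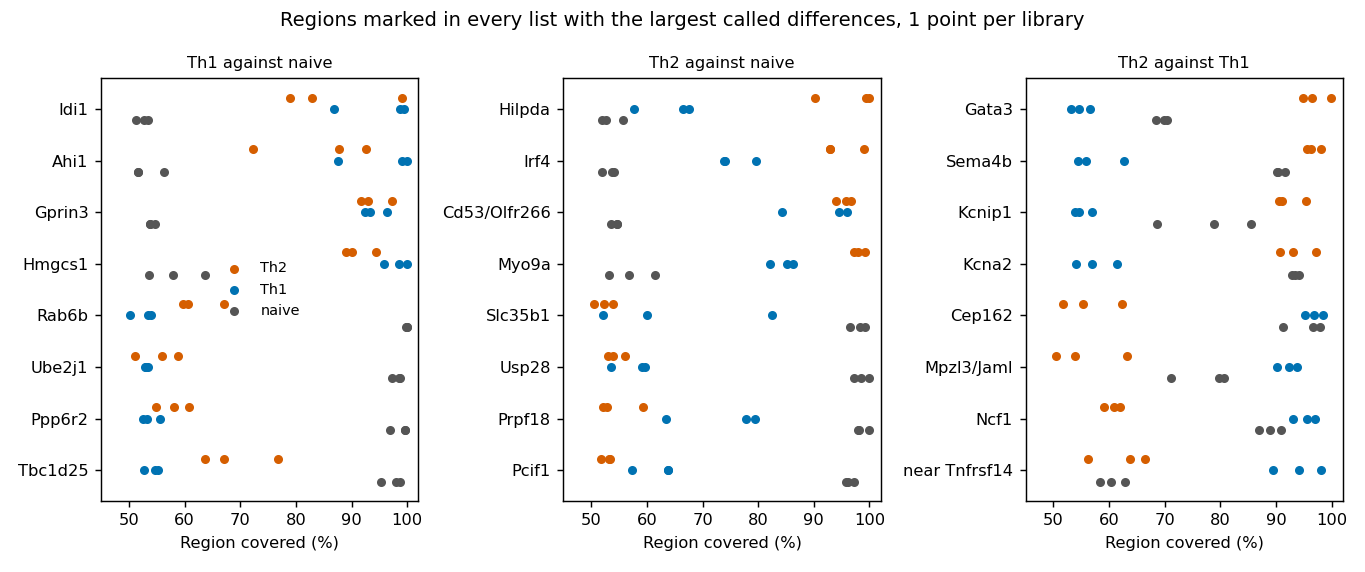
Percentage of the region covered (x axis, from 45%) in each library for the 8 regions with the largest called differences in each comparison (rows), 4 higher above 4 lower in each panel; points are libraries, coloured by cell type. Gata3 has 94.9 to 99.8% in Th2, 53.2 to 56.6% in Th1 and 68.5 to 70.4% in naive libraries.

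Among the lists, the genes named below for a called difference were chosen after their values were seen, and the counts are given also with libraries centred to a common mean, since that changed many of them. Beside them stand the shares called over all 5826 regions, and nothing particular to a list is read from its count. In Th2 against naive cells 2.09% of the 5826 were called higher and 11.7% lower, and after centring 4.02% and 5.41%. In Th1 against naive cells 1.49% were called higher and 13.8% lower, and after centring 6.61% and 1.37%. Of 12 regions of activation genes 4 rose in Th2 and 3 in Th1 against naive cells and none fell, and after centring 7 and 10 rose and none fell. The median difference was 20.9 points in Th2 and 16.9 points in Th1 against naive cells, beside -8.35 and -9.02 over all of the regions. Myc, which drives growth after activation, was covered over 88.1, 88.6 and 98.7% in Th2, 86.3, 87.6 and 86.3% in Th1 and 51.2, 59.9 and 59.9% in naive libraries. Tnfrsf9, the costimulatory receptor 4-1BB, lay in a region shared with Park7 and had 92.01 to 98.6% in Th2, 94.3 to 97.1% in Th1 and 60.2 to 63.9% in naive libraries. Both were called on both scales, though centring could only enlarge these gains, and the polarised libraries lay above all naive ones.

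Of 13 regions of glycolysis genes 3 rose in Th2 against naive cells, those of Pfkp, Gpi1 and the glucose transporter Slc2a3, and 1 rose in Th1, that of the glucose transporter Slc2a1; after centring 4 and 6 rose, and none fell on either scale. Slc2a1 was covered over 83.7, 89.1 and 84.3% in Th2, 95.6, 92.1 and 88.6% in Th1 and 67.9, 63.2 and 65.3% in naive libraries. Of 61 regions of ribosomal protein genes 5 rose and 2 fell in Th2 and 5 rose and none fell in Th1 against naive cells, and after centring 15 and 20 rose and none fell. The share that rose was 8.2% in both comparisons, beside 6.92% in Th2 and 4.88% in Th1 over all union regions, and after centring 24.6% in Th2 and 32.8% in Th1, beside 9.57% and 8.1%. Rpl39 was covered over 97.3, 96.8 and 99.1% in Th2, 100, 95.9 and 95.96% in Th1 and 62.4, 60.9 and 50.6% in naive libraries, and Rps29 and Rpl29 were called higher in both comparisons. The 2 that fell in Th2, Rps16 and Rpl38, were not called after centring. Against Th1 cells, the region of Rplp1 rose in Th2 by 34.6 points on the scale of the lists and was called after centring too.

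Losses in the lists depended on the scale, and over all union regions 15.8% were called lower in Th2 and 17.2% in Th1 against naive cells. In oxidative phosphorylation 7 of 56 regions fell in Th2 and 7 in Th1 against naive cells, and 1 rose in Th2; after centring 1 fell and 1 rose in Th2, and none fell and 2 rose in Th1. The share that fell as deposited was 12.5% in both comparisons, close to the shares over the 5826 regions (11.7% in Th2 and 13.8% in Th1). Of 37 regions of chromatin regulators 4 fell in Th2 and 4 in Th1 (10.8% each, also close to those shares). After centring 1 fell in Th2, that of Kmt2a, an H3K4 methyltransferase. Kmt2a was covered over 58.2, 56.7 and 62.2% in Th2, 69.9, 72.4 and 65.03% in Th1 and 93.8, 97.8 and 99.8% in naive libraries. Of 16 regions of DOT1L and elongation partners 2 fell in Th2, those of Supt5 and Eaf1, and that of Eaf1 in Th1, and none was called after centring. Of 23 regions of RNA polymerase II and Mediator genes 6 fell and 1 rose in Th2 and 5 fell and 1 rose in Th1, and after centring 2 fell and 1 rose in Th2 and 2 fell and 3 rose in Th1. Brd2, a bromodomain protein gene, was called higher in Th2 than in Th1 cells by 26.2 points, and not after centring.

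Of 7 regions of naive and quiescence genes 2 fell in Th2 and 3 in Th1 against naive cells, and after centring 1 fell in each. Btg2, an antiproliferative gene, was the one called in Th1 on both scales, with 71.8 to 76.6% in Th2, 54.9 to 62.97% in Th1 and 97.5 to 99.6% in naive libraries. Actn1, for an actin crosslinker, was the one called in Th2 on both scales. Il7r, the receptor of the survival cytokine IL-7, had 95.03 to 99.9% in Th2, 93.2 to 99.6% in Th1 and 86.98 to 88.2% in naive libraries and was not called.

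Of the fate genes, Il12rb1, the IL-12 receptor chain, had 94.1 to 97.7% in Th2, 91.1 to 95.6% in Th1 and 71.3 to 73.8% in naive libraries; it was under the minimum difference as deposited and was called higher in both polarised cell types after centring. Stat4, the transducer of IL-12, had 91.4 to 93.2% in Th2, 93.8 to 97.7% in Th1 and 90.5 to 93.4% in naive libraries, and Stat6, the transducer of IL-4, had 98.9 to 99.9% in Th2, 94.00 to 96.8% in Th1 and 93.7 to 95.4% in naive libraries; neither was called. Myb, a progenitor factor, fell by 42.6 points in Th2 and by 35.1 points in Th1 against naive cells, and after centring in Th2 alone. Among 23 regions of T cell receptor signalling Malt1 rose and Rasgrp1 and Ubash3a fell in Th1 against naive cells, and after centring Malt1 alone was called, in Th2 and in Th1; in Th2 its difference as deposited was 22.8 points, under the minimum of 25.

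In the comparisons of Th2 and of Th1 with naive cells 3 and 2 of 25 proteasome regions rose and 2 and 4 fell, 3 and 2 of 38 spliceosome regions rose and 2 and 2 fell, and 1 and 2 of 40 regions of translation initiation factors fell. After centring 3 and 4 proteasome regions rose and 1 and 0 fell, 3 and 3 spliceosome regions rose and none fell, and 1 and 4 regions of translation initiation factors rose and none fell. In the same order, 1 and 1 of 19 cell cycle regions rose and 1 and 2 fell, and after centring 2 and 3 rose and none fell. Of 25 regions of ubiquitin conjugating enzymes 0 and 1 rose and 1 and 1 fell, and after centring 0 and 2 rose and 1 and 1 fell. Of 13 nuclear pore regions 2 and 1 fell, and none was called after centring. The 7 regions of T lineage markers differed by a median of -8.01 points in Th2 and -13.6 points in Th1 against naive cells, and no limma call at 25 points was made among them on either scale.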

How the data were processed

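H3K79me2 was mapped by chromatin immunoprecipitation and sequencing; cells were fixed for 10 min in 0.6% formaldehyde, per the labels. The authors deposited 1 broad peak list per H3K79me2 library, so peaks were called separately in each. The tools named in the submitters' processing notes are MACS2, SAMtools, Picard and Bowtie2, and the build is mm10; their settings, and whether inputs served in calling peaks, are not given in the sources used here. Each peak carries a deposited score, a deposited fold enrichment (a ratio) and deposited −log10 p and −log10 q values, all the authors' and all belonging to the peak within its own list; here they only ranked or filtered peaks. Per the labels nothing gives read counts, so depth is unknown, no counting interval was set, and a deeper library could yield more covered bases.

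Merged peaks gave union regions and the percentage of each region covered in each library (Python 3.11.15, numpy 2.4.6, pandas 2.3.3). This percentage saturates at 100%. limma 3.58.1 in R 4.3.3 (lmFit and eBayes with a variance trend, 6 residual degrees of freedom) was fitted to all 60558 regions, with Benjamini-Hochberg adjustment over all of them. No p is given for shares or counts over the regions, because the regions were chosen from the same lists. Genes came from RefSeq (GRCm38.p6), and promoters, with strand, from its promoter table; genes without an entry there, and chromosome 18, were left out of the start site results. The 9 inputs were not used. No 2 lists shared more than 1 identical peak, so each counted as its own sample. The members, gene lists and tests were chosen with earlier results of these data known. Genes were named by fixed rules: the strongest 6, the widest, most crowded, narrowest, steadiest and bare 4, the 4 most changed in each direction, the regions at the edges of the rule, and, for the lists, the strongest 3 of each and every gene of other cell types; exceptions are stated. Coordinates are 1-based on mm10. Values of 2 genes of the lists are not reported here.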

Additional observations from a re-analysis of the deposited data

Results flagged for a closer look

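In 8 regions coverage in Th2 and Th1 cells differed past the limma threshold. Coverage also chose the regions, and these 8 were taken for the size of their difference, so the values are a description and not support for an effect. Both effects below were set against the same 3 naive libraries, so they are not independent. The Th2 minus Th1 difference was 42.3 points in Gata3, where Th2 cells differed from naive cells by 27.5 points and Th1 cells by -14.8 points. In Sema4b it was 38.96 points, with 5.98 in Th2 and -33.0 in Th1 cells against naive cells, and in Kcna2 36.2 points, with 0.12 and -36.1. In Kcnip1 it was 37.3 points, with 14.8 in Th2 and -22.5 in Th1 cells.

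The difference was negative in the other 4. In Cep162 it was -40.4 points, with -38.8 points in Th2 and 1.62 in Th1 cells against naive cells. In the Mpzl3 and Jaml region it was -36.2 points, with -21.3 and 14.9, and in the Ncf1 and Gtf2i region -34.7 points, with -28.4 and 6.29. In the region near Tnfrsf14 it was -31.7 points, with 1.63 in Th2 and 33.4 in Th1 cells. They are the 4 largest in each direction among 85 called differences.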

How the results depend on the processing

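With presence at 80% of the region 1697 regions and 1536 genes remained, and 1936 genes when the whole gene had to lie inside. Counts of regions under the other definitions, from 4104 with peaks of −log10 q of at least 5 to 7890 with presence at 30%, were within 1.5 times of the 5826. Calls at a minimum of 10 points numbered 2837 in Th1 against naive, 2804 in Th2 against naive and 512 in Th2 against Th1 cells. Centring left 465 in Th1 against naive cells. In Th2 against Th1 cells 33 calls were left without a variance trend and 46 with peaks of −log10 q of at least 5. Leaving out 1 library gave 816 to 1105 calls, 757 to 877 and 79 to 101 in the 3 comparisons.

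Given as Th2, Th1 and naive, the share of covered bases was 54.9, 55.1 and 60.2% at matched covered length and 54.1, 54.7 and 47.6% with the q filter, and the unbroken regions were 60.2, 49.6 and 89.3% and 86.3, 84.8 and 89.0%. Without 1 library the shares were 56.5 to 57.6%, 59.7 to 60.5% and 53.9 to 54.98%, and the unbroken regions 38.7 to 41.7%, 37.3 to 41.4% and 62.6 to 63.8%. Start sites covered in naive libraries were 81.7% with the q filter and 81.3% at matched length. With starts outside the region counted, few of which could be covered, start sites covered were 50.4, 47.3 and 66.7%. Without 1 library they were 60.2 to 64.4%, 57.4 to 59.9% and 82.5 to 83.8%. Matching by length took more weak peaks from the naive lists than from the others, and the cause of these shifts was not tested. The start site alternatives, and those of the 24 named regions, were chosen after seeing the data.

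The 24 regions named for their change kept their direction and call wherever they were members: 9 at matched length, 5 with the q filter and 24 in each other setting. The labels number the libraries of each group 1 to 3, and same-numbered libraries did not deviate together (correlations -0.019 to 0.018). These correlations were taken over all union regions, 51.1% of them present in 1 list alone. They show no pairing by number but cannot decide whether same-numbered libraries shared an origin. With the number as a replicate block the calls were 891 in Th1 against naive, 807 in Th2 against naive and 88 in Th2 against Th1 cells, against 891, 806 and 85 without it. Unknown depth limits every comparison of covered length.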
